A study of Mus musculus with 19 samples.

Results

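The genes described are 9 of lactose synthesis, Lalba, B4galt1, Slc2a1, Slc35a2, Ugp2, Galt, Hk2, Slc5a1 and Tmem165, taken by their symbols from 24421 genes counted by total RNA-seq in 19 libraries of mouse mammary tissue. All 9 were present in every library's counts and passed the filter of at least 10 reads in total. The mice were young adult females, C57BL/6 by the labels and C57BL/6N by the study's methods. Wild-type (WT) tissue gave 3 libraries at day 6 of pregnancy (p6) and 3 at day 18 (p18). Tissue without the super-enhancer of the casein locus, labelled Enhancer-delS1-4 and called ΔSE, gave 4 libraries at each stage. At p18, 3 further libraries came from mice without an enhancer of Csn1s2b (ΔCsn1s2bE) and 2 from mice without the proximal enhancer of Csn3 (ΔCsn3PE). The deletions were made with CRISPR/Cas9 in the germ line, so every cell of a mutant carries them, and the mutant mice were homozygous. The RNA came from whole tissue. The extraction note of the 5 single-enhancer libraries names WT tissue in lactation, so that their stage and genotype rest on their titles and stage labels.

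Lactose, the main sugar of milk, is made in the Golgi of secretory mammary cells by lactose synthase. Its catalytic subunit β-1,4-galactosyltransferase 1 (B4galt1) is expressed in many tissues, and α-lactalbumin (Lalba), a whey protein particular to the mammary gland, turns it to glucose as the acceptor. Glucose enters the cell through carriers such as GLUT1 (Slc2a1) and the sodium-coupled SGLT1 (Slc5a1). It is phosphorylated by hexokinases (Hk2) and becomes UDP-glucose through Ugp2. Galt is the uridylyltransferase of the Leloir pathway. UDP-galactose is carried into the Golgi by Slc35a2, and Tmem165 is a Golgi membrane protein for manganese and calcium, of which manganese is the cofactor of the galactosyltransferase.

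The lactose synthase genes lie apart in the genome (GRCm38, GENCODE M21). Lalba is at chr15:98480400-98482721 and B4galt1 at chr4:40804602-40854005, both on the minus strand. Among the genes of glucose and nucleotide sugar supply, Slc2a1 is at chr4:119108711-119137983, Galt at chr4:41755228-41758695, Slc35a2 at chrX:7884028-7894492 and Slc5a1 at chr5:33104219-33162870, all on the plus strand, and Ugp2 at chr11:21321138-21371201 and Hk2 at chr6:82725025-82774454 on the minus strand. Tmem165 is at chr5:76183880-76209245 on the plus strand. It shares chromosome 5 with the casein locus, which it precedes by 11.5 Mb, and Slc5a1 precedes the locus by 54.5 Mb. Galt lies with all of its 3468 bases inside the annotated span of Il11ra1 on the same strand, so that reads of the 2 genes may not be told apart and the values of Galt are uncertain.

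The promoters of both lactose synthase subunits and of Tmem165, the 3 of the 9 genes that rose most in WT tissue, are shown as the 250 bases before the transcription start in RefSeq (GRCm38.p6), 5′ to 3′ on the gene's strand. Capitals mark the GAS motif TTCNNNGAA, recognized by STAT factors, and the half-site TGGCA or TGCCA of nuclear factor I, both searched on both strands. The windows are chr15:98482684-98482933 (minus) for Lalba, chr4:40853985-40854234 (minus) for B4galt1 and chr5:76183630-76183879 (plus) for Tmem165.
Lalba: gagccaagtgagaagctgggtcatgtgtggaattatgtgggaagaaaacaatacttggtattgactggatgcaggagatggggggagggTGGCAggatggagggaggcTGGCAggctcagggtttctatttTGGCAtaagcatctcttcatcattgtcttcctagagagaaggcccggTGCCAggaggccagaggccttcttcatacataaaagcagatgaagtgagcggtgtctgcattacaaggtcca
B4galt1: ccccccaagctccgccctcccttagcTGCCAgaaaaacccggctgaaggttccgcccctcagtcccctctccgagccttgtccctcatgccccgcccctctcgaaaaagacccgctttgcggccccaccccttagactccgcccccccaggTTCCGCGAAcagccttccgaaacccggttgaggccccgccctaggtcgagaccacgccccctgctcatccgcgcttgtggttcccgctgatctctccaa
Tmem165: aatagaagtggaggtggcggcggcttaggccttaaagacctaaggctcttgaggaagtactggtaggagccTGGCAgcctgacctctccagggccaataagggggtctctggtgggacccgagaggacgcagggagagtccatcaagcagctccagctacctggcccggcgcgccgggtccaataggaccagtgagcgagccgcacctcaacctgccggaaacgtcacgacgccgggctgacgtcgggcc

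In these windows, the Lalba promoter held 4 half-sites, 161, 142, 119 and 72 bases before the start, and no GAS motif. The B4galt1 promoter held a GAS motif 99 bases and a half-site 224 bases before the start, and the Tmem165 promoter a half-site 179 bases before it. RefSeq listed 11 promoters for the 9 genes. The GAS motif was found in 1 of them and in 7.02% of 32851 promoters of the same length, and the half-site in 7 of them (6 genes) and in 42.8% of all promoters. Slc5a1 also held 4 half-sites, whereas Slc2a1, Slc35a2 and Hk2 held neither motif. A match is a letter string in this window and was not tested for binding.

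In all, reads assigned to genes came to 12335272 to 20525175 per library in WT and ΔSE tissue and to 26848053 to 30329601 in the single-enhancer libraries. Of these reads, 21.7 to 42.9% were of the rRNA precursor Rn45s in the first set and 0.0765 to 0.924% in the second. The 10 luminal epithelial markers summed to 643 to 2141 normalized CPM (reads per 1e6 after TMM scaling over all 19 libraries), and none was at 0 throughout a group. The 9 skeletal muscle markers varied far more between libraries. They summed to 1248 to 2404 normalized CPM in WT at p6 and to 51.1, 2716, 124 and 3851 in the 4 ΔSE libraries at p6. At p18 they summed to 3.79, 1078 and 1614 in WT and to 5.52 to 15.1 in ΔSE, to 18.0 to 695 in ΔCsn1s2bE and to 1.65 and 37.4 in ΔCsn3PE. The labels do not say whether replicates came from separate mice, and p-values measure the spread between these libraries. In whole tissue, fewer cells of a type and less RNA per cell cannot be told apart.

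**Figure D1:**
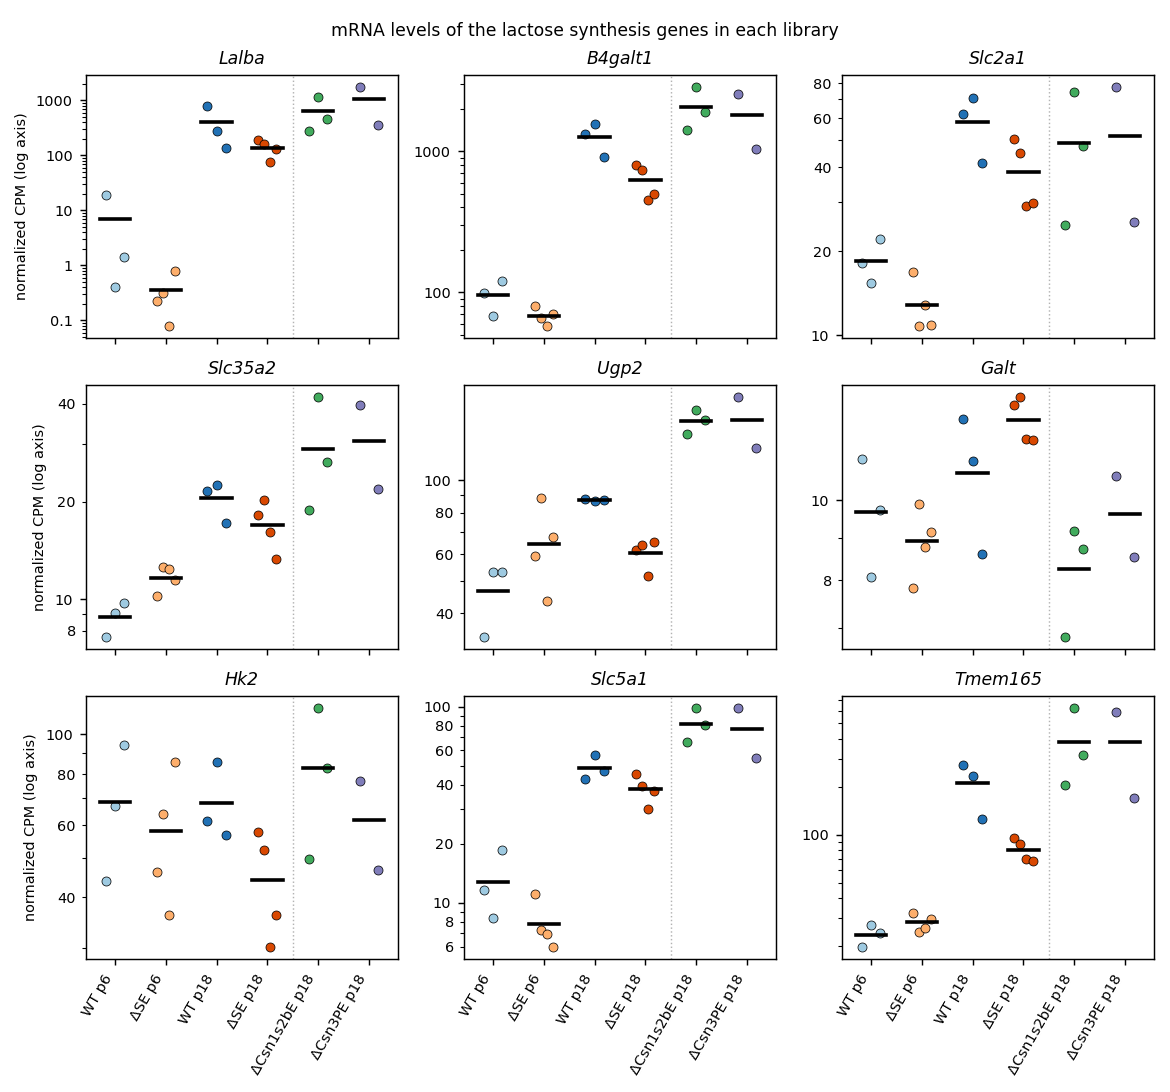
Normalized CPM (log axis) of each gene in each of the 19 libraries, by group, with black bars at the group means and a dotted line before the single-enhancer set. In WT, Lalba, B4galt1 and Tmem165 show the widest distances between p6 and p18, and the 4 ΔSE libraries at p18 lie below the 3 WT libraries for B4galt1, Ugp2 and Tmem165.

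To compare genes with each other, levels were divided by exon length. In WT at p6, B4galt1 was highest with 22.6 normalized CPM per kb (16.1 to 28.4, n = 3), before Ugp2 with 15.2 (11.1 to 17.4), Hk2 with 11.4 (7.35 to 15.8), Tmem165 with 9.11 (7.57 to 10.5) and Lalba with 9.07 (0.537 to 24.8). Slc2a1 followed with 5.28, Galt with 3.92, Slc5a1 with 3.13 and Slc35a2 with 1.87. Each gene's range overlapped that of its neighbour in this order. At p18 the order was steeper. Lalba had 527 normalized CPM per kb (178 to 1039, n = 3), B4galt1 300.3 (216 to 369), Tmem165 81.2 (48.4 to 105), Ugp2 28.4 (28.2 to 28.7) and Slc2a1 16.6 (11.8 to 20.2). Slc5a1 had 11.9, Hk2 11.4, Galt 4.36 and Slc35a2 4.32. The range of Lalba overlapped that of B4galt1, and so did those of Slc2a1 and Slc5a1, of Slc5a1 and Hk2, and of Galt and Slc35a2, whereas the other neighbours were apart.

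**Figure D2:**
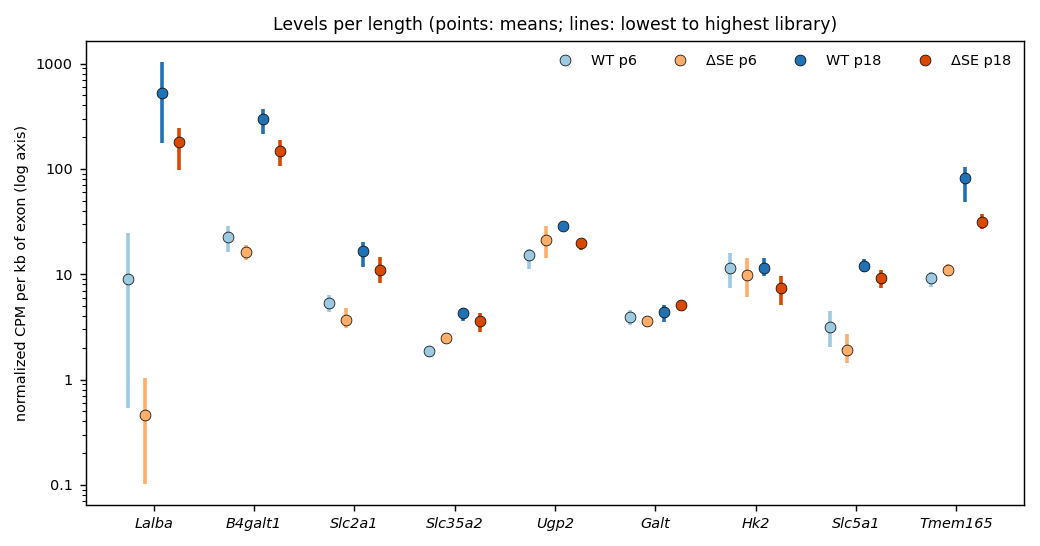
Levels per length in WT and ΔSE tissue at both stages, in normalized CPM per kb of exon (log axis), with points at the means and lines from the lowest to the highest library. In WT the means lie closer together at p6 than at p18. In ΔSE they are already spread at p6, from 0.458 for Lalba to 21.1 for Ugp2. At p18, Lalba, B4galt1 and Tmem165 stand above the rest in both genotypes.

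Lactose synthase mRNA rose between p6 and p18 in WT tissue. Lalba was at 19.1, 0.414 and 1.43 normalized CPM in the 3 libraries at p6 (242, 8 and 30 reads) and at 801, 281 and 137 at p18. All libraries at p18 were above all at p6, and p6 replicate 1 stood well above the other two. The log2 fold change was 5.99 (SE 0.98, adjusted p = 0.000313, edgeR's quasi-likelihood test). It ranged from 3.66 with 1 factor of unwanted variation to 8.78 without p6 replicate 1 and was called in each of 18 alternatives. B4galt1 was at 98.5, 68.1 and 120 normalized CPM at p6 and at 1340, 1561 and 913 at p18. Here the replicates lay close together within each stage, and the log2 fold change was 3.75 (SE 0.28, adjusted p = 4.8e-07). Over all genes tested, 17.2% were called higher and 12.4% lower at p18, with a median log2 fold change of -0.05, whereas 7 of the 9 lactose synthesis genes were called higher and none lower, with a median of 1.67. The libraries of these 7 genes did not overlap between the stages, as for 20.5% of all genes in this direction.

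Tmem165, the Golgi ion transporter, rose almost as much as B4galt1 in WT. It was at 19.6, 27.1 and 24.0 normalized CPM at p6 and at 272, 233 and 125 at p18, a log2 fold change of 3.18 (SE 0.24, adjusted p = 5.4e-07). Both glucose carriers rose as well. Slc5a1 went from 11.6, 8.43 and 18.5 normalized CPM to 43.0, 56.7 and 46.8 (log2 fold change 1.94, SE 0.26), and Slc2a1 from 18.1, 15.4 and 22.1 to 62.3, 70.9 and 41.3 (log2 fold change 1.67, SE 0.25). The stages were apart for both carriers. The UDP-galactose carrier Slc35a2 was at 7.67 to 9.74 normalized CPM at p6 and at 17.2 to 22.5 at p18 (log2 fold change 1.23, SE 0.17, adjusted p = 7.5e-05). Per read of Krt8 and Krt18 this call was lost (0.60, adjusted p = 0.137). The smallest rise among the called genes was that of Ugp2, the source of UDP-glucose, from 34.1, 53.0 and 53.3 to 87.9, 86.5 and 87.2 normalized CPM (log2 fold change 0.92, SE 0.21, adjusted p = 0.00413). Its call was lost when libraries were scaled by their totals or by Krt8 and Krt18, and with WT at p18 represented by replicate 1 alone, where the log2 fold change was 0.95 (adjusted p = 0.0655) and the lone library is assumed to vary like the other groups.

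Galt and Hk2 did not pass the test in WT. Galt was at 8.07 to 11.2 normalized CPM at p6 and at 8.62 to 12.5 at p18 (log2 fold change 0.18, 95% confidence interval -0.18 to 0.54, adjusted p = 0.459). Hk2 was at 43.9, 66.8 and 94.1 normalized CPM at p6 and at 61.3, 85.7 and 56.8 at p18 (log2 fold change 0.01, 95% confidence interval -0.66 to 0.69, adjusted p = 0.985). The stages overlapped for both genes. Hk2 is also the main hexokinase of skeletal muscle, whose markers summed to 1248, 2404 and 2398 normalized CPM in the same 3 libraries at p6. In the 3 libraries at p18 these markers summed to 3.79, 1078 and 1614. With the muscle level as a covariate, the log2 fold change of Hk2 was 0.28 (adjusted p = 0.573). Beyond this covariate the part of muscle was not tested.

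In ΔSE tissue the stage comparison also called 7 genes higher and none lower, against 17.3% of all genes higher and 18.3% lower and a median of -0.07. The 7 were not the same as in WT: Galt was called here and Ugp2 was not. Lalba was at 0.225, 0.314, 0.0791 and 0.792 normalized CPM at p6, from 4, 6, 1 and 16 reads, and at 187, 159.5, 74.9 and 130 at p18. The log2 fold change was 8.48 (SE 1.06, adjusted p = 2.04e-05), with so few reads at p6 that its size is loosely set (7.11 to 11.5 over 19 alternatives). B4galt1 was at 80.5, 65.3, 57.6 and 69.7 normalized CPM at p6 and at 802, 741, 455 and 496 at p18 (log2 fold change 3.21, SE 0.24, adjusted p = 2.96e-07). For both subunits of lactose synthase, the 4 libraries at p18 lay above the 4 at p6, as for 17.8% of all genes in this direction.

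Of the genes of supply in ΔSE tissue, Slc5a1 rose from 5.94 to 11.1 normalized CPM at p6 to 30.0 to 45.2 at p18 (log2 fold change 2.29, SE 0.23), and Slc2a1 from 10.8 to 16.9 to 29.1 to 50.6 (log2 fold change 1.60, SE 0.22). Tmem165 rose from 32.1, 24.6, 26.0 and 29.7 normalized CPM to 95.6, 87.2, 70.4 and 68.8 (log2 fold change 1.53, SE 0.20, adjusted p = 3.28e-05). The stages did not overlap for any of these 3 genes. Per read of Krt8 and Krt18, the calls of Tmem165 (0.42, adjusted p = 0.166) and Slc2a1 (0.54, adjusted p = 0.0745) were lost. Slc35a2 (log2 fold change 0.55, SE 0.15, adjusted p = 0.00756) and Galt (log2 fold change 0.50, SE 0.15, adjusted p = 0.0150) had the smallest called differences. Both calls depended on the scaling: with library totals alone the log2 fold changes were -0.06 and -0.11, and per read of Krt8 and Krt18 they were -0.57 and -0.63. With the muscle level as a covariate the log2 fold change was 0.52 for Slc35a2 (adjusted p = 0.0966) and 0.40 for Galt (adjusted p = 0.202).

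Ugp2 and Hk2 were not called between the stages in ΔSE tissue. Ugp2 was at 43.5 to 88.3 normalized CPM at p6 and at 51.8 to 65.3 at p18 (log2 fold change -0.08, 95% confidence interval -0.47 to 0.31, adjusted p = 0.772), and was called lower with library totals alone (-0.72, adjusted p = 0.0314) and per read of Krt8 and Krt18 (-1.21). Hk2 was at 46.2, 63.9, 36.3 and 85.7 normalized CPM at p6 and at 57.8, 52.1, 30.2 and 36.2 at p18 (log2 fold change -0.39, 95% confidence interval -0.98 to 0.20, adjusted p = 0.299). The p6 libraries with the higher Hk2 levels, replicates 2 and 4, were those with muscle markers at 2716 and 3851 normalized CPM, against 51.1 and 124 in the other two. The part of muscle in these levels was not tested beyond the covariate, with which the log2 fold change of Hk2 was 0.10 (adjusted p = 0.870). Hk2 was called lower with library totals alone (-1.06, adjusted p = 0.00964), per read of Krt8 and Krt18 (-1.59) and with 1 factor of unwanted variation (-1.29, adjusted p = 0.00991).

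**Figure D3:**
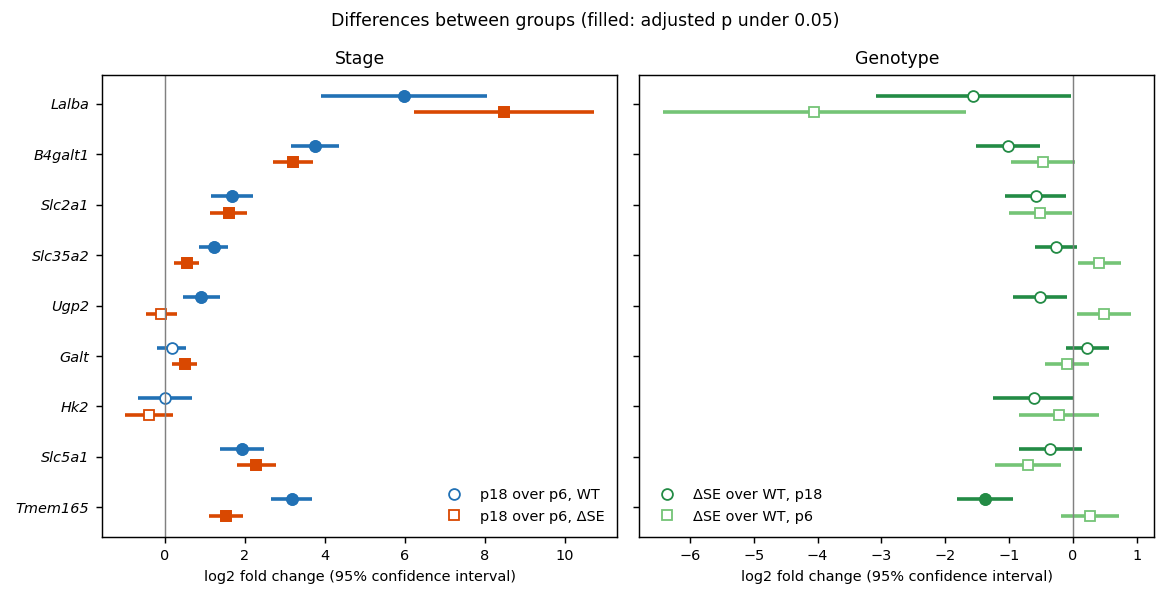
Log2 fold changes with 95% confidence intervals of the 9 genes, for p18 over p6 in WT and ΔSE tissue (left) and for ΔSE over WT at each stage (right). Filled points have an adjusted p under 0.05; in the comparisons of genotype, 1 of the 18 points is filled, that of Tmem165 at p18.

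Tmem165 was the one gene of the 9 called between ΔSE and WT tissue at p18. The 4 ΔSE libraries, at 68.8 to 95.6 normalized CPM, lay below the 3 WT libraries, at 125 to 272, and their mean was 38.3% of the WT mean. The log2 fold change was -1.38 (SE 0.21, adjusted p = 0.0110). Over all genes, 0.101% were called higher and 0.213% lower in this comparison, with a median log2 fold change of -0.04, against -0.59 for the lactose synthesis genes. The call was lost without WT replicate 1 (log2 fold change -1.13, adjusted p = 0.0585), without WT replicate 2 (-1.31, adjusted p = 0.0824) and without ΔSE replicate 3 (-1.32, adjusted p = 0.0560). Compared with WT replicate 1 alone, the WT library with as few muscle reads as the ΔSE libraries, the log2 fold change was -1.77 (adjusted p = 0.00975), with the spread taken from the other groups since this arm is 1 library.

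B4galt1 did not pass the test at p18, although its libraries did not overlap. The ΔSE libraries had 455 to 802 normalized CPM and the WT libraries 913 to 1561, with a log2 fold change of -1.02 (SE 0.24, 95% confidence interval -1.52 to -0.52, adjusted p = 0.0779). It passed with DESeq2 (adjusted p = 0.00341), with only both groups compared in the fit (adjusted p = 0.0126), with 1 factor of unwanted variation (adjusted p = 0.0144) and without WT replicate 3 (adjusted p = 0.0405). In the other 15 of 19 alternatives B4galt1 stayed uncalled. Ugp2 was apart as well, at 51.8 to 65.3 normalized CPM in ΔSE and at 86.5 to 87.9 in WT (log2 fold change -0.52, SE 0.20, adjusted p = 0.276). It passed with the 2 groups alone in the fit (adjusted p = 0.0133) and stayed uncalled in the other 18 of 19 alternatives. The libraries of 3 of the 9 genes thus lay wholly below WT, as did those of 9.94% of all genes.

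The remaining genes overlapped between ΔSE and WT at p18. Lalba had a mean of 138 ± 48.1 normalized CPM (SD, n = 4) in ΔSE and 406 ± 349 (SD, n = 3) in WT, and its log2 fold change of -1.56 had a 95% confidence interval of -3.09 to -0.03 (adjusted p = 0.397). WT replicate 1, at 801 normalized CPM, was 5.85-fold above WT replicate 3. For Slc2a1 (-0.59), Slc35a2 (-0.26) and Slc5a1 (-0.35) the log2 fold changes were below 0, and for Galt it was 0.22. For Hk2 it was -0.62 (adjusted p = 0.416). The muscle markers were at 3.79, 1078 and 1614 normalized CPM in the 3 WT libraries, with Hk2 at 61.3, 85.7 and 56.8. In ΔSE the muscle markers were at most 15.1, with Hk2 at 30.2 to 57.8. With the muscle level as a covariate the value for Hk2 was -0.28 (adjusted p = 0.843). The part of muscle was not tested beyond the covariate.

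At p6 no lactose synthesis gene was called between ΔSE and WT by edgeR's quasi-likelihood test, whereas 5 of the 9 had an unadjusted p under 0.05, as did 3035 of all 17844 genes, and DESeq2 called Lalba. Over all genes, 0.499% were called higher and 0.527% lower. Lalba was at 0.0791 to 0.792 normalized CPM in ΔSE and at 0.414 to 19.1 in WT, so that the groups overlapped. Its log2 fold change of -4.05 (SE 1.12, adjusted p = 0.0817) rested on 1 to 16 reads per ΔSE library and 8 to 242 per WT library. DESeq2 gave -4.29 (adjusted p = 0.00603), and edgeR without WT replicate 2, the WT library with the fewest Lalba reads, gave -4.64 (adjusted p = 0.00613). Without WT replicate 1, the library with the most, the value was -1.26 (adjusted p = 0.769), and over 18 alternatives it ran from -4.84 to -1.26. Csn2, the gene of β-casein, was likewise at 30.8 normalized CPM in WT replicate 2 and at 1297 and 1045 in the other two. Slc5a1 had 5.94 to 11.1 normalized CPM in ΔSE and 8.43 to 18.5 in WT (log2 fold change -0.71, SE 0.24, adjusted p = 0.150). Slc35a2 was the one gene whose ΔSE libraries all lay above WT, at 10.2 to 12.6 against 7.67 to 9.74 normalized CPM (log2 fold change 0.41, SE 0.16, adjusted p = 0.201), as for 5.87% of all genes in this direction.

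The rise of Tmem165 between the stages differed between the genotypes. Its difference of log2 fold changes, ΔSE minus WT, was -1.64 (SE 0.30, adjusted p = 0.0462), and it was the one lactose synthesis gene called in the interaction of genotype and stage, with 0.0897% of all genes called higher and 0.0616% lower. This call lies close to the threshold and was lost in 15 of 25 alternatives, among them 12 of the 14 fits that each left out 1 library; the difference stayed between -2.20 and -1.40. Ugp2 had a difference of -0.999 (SE 0.28, adjusted p = 0.114), which passed with DESeq2 (adjusted p = 0.0343), Slc35a2 of -0.67 (SE 0.22, adjusted p = 0.158) and Lalba of 2.49 (SE 1.39, adjusted p = 0.384). The value of Lalba turned to -0.30 without WT replicate 1 at p6 (range -0.30 to 3.47 over 25 alternatives), so that its direction rests on that library. The 4 comparisons of WT and ΔSE share libraries with each other.

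Read ratios within a library do not depend on its scaling. Per read of B4galt1, Lalba gave 0.194, 0.00607 and 0.0119 reads in WT at p6 and 0.598, 0.180 and 0.150 at p18. In ΔSE the ratio was 0.00280, 0.00481, 0.00137 and 0.0114 at p6 and 0.234, 0.215, 0.165 and 0.262 at p18. Lalba reads thus gained on B4galt1 reads in ΔSE tissue without overlap, by 5.60 on the log2 scale (exact two-sided permutation test, p = 0.0286, the smallest p that 4 against 4 allows, adjusted p = 0.229 over 8 tests). In WT, p6 replicate 1 was above p18 replicates 2 and 3, and the difference of 3.35 had p = 0.30 (exact permutation test, smallest possible p 0.10). At p18 the ratio of ΔSE to WT differed by -0.23 (exact permutation test, p = 0.80) and at p6 by -2.47 (p = 0.114), where 4 against 3 cannot go below 0.0571.

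The second ratio set Hk2 against Hk1, the hexokinase of most tissues. In WT it was 0.741, 1.20 and 1.34 reads of Hk2 per read of Hk1 at p6 and 1.01, 1.15 and 0.875 at p18. In ΔSE it was 0.909, 1.59, 0.730 and 2.39 at p6 and 0.745, 0.736, 0.455 and 0.526 at p18. The 4 ΔSE libraries at p18 were below the 3 WT libraries, by -0.74 on the log2 scale, at the smallest p that the design allows (exact permutation test, p = 0.0571, adjusted p = 0.229). The stage difference was -1.06 in ΔSE (exact permutation test, p = 0.0857) and -0.08 in WT (p = 0.80). The 2 ΔSE libraries with the highest ratios were again those with the most muscle reads. In WT at p6 the lowest ratio, 0.741, also came with the lowest muscle level, 1248 normalized CPM. In WT at p18 the ratios of 1.01, 1.15 and 0.875 came with muscle markers at 3.79, 1078 and 1614. ΔCsn1s2bE replicate 2 had a ratio of 1.70 with muscle markers at 18.0. The part of muscle in the ratio was not tested.

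**Figure D4:**
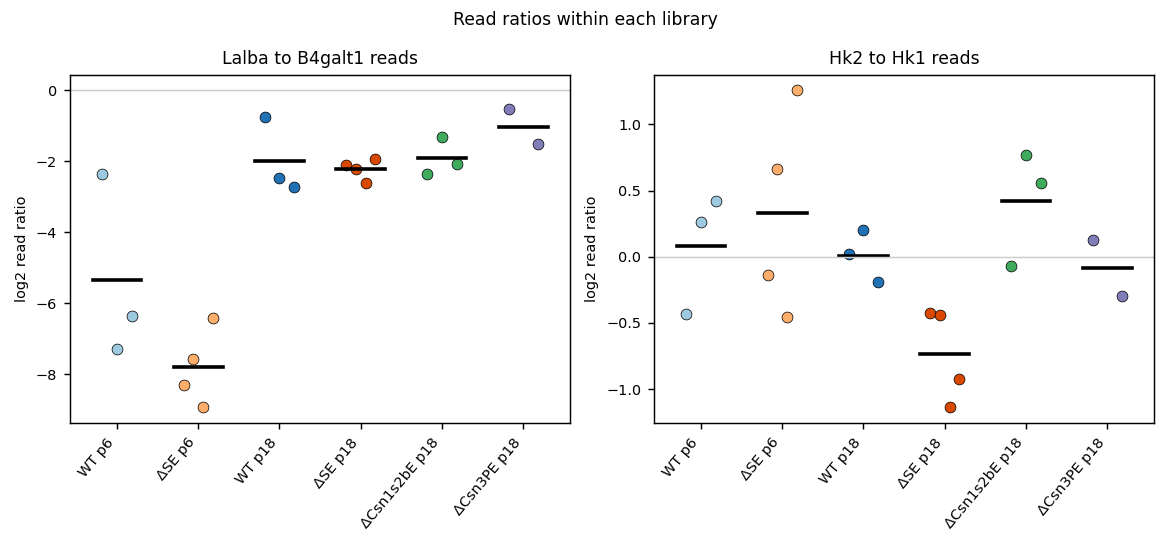
Log2 ratios of Lalba to B4galt1 reads (left) and of Hk2 to Hk1 reads (right) in each library, by group, with black bars at the group means. The ratio of Lalba to B4galt1 is lowest at p6 and near -2.21 in ΔSE at p18, and the ratio of Hk2 to Hk1 is widest in ΔSE at p6.

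In the single-enhancer libraries no lactose synthesis gene was called lower than in WT at p18. Of all genes, 15.0% were called lower in ΔCsn1s2bE and 11.5% in ΔCsn3PE. For Lalba, B4galt1, Slc2a1, Slc35a2, Ugp2, Hk2, Slc5a1 and Tmem165, the library with the highest level of all was a single-enhancer library. How many of all genes share this was not counted, so it is not a result about these genes. Galt was highest in a ΔSE library at p18. Lalba was at 277, 1162 and 456 normalized CPM in ΔCsn1s2bE and at 1791 and 365 in ΔCsn3PE, against 137 to 801 in WT. Tmem165 was at 206, 628 and 315 in ΔCsn1s2bE and at 593 and 171 in ΔCsn3PE, against 125 to 272 in WT. These ranges overlapped, and neither gene was called. ΔCsn1s2bE replicate 2 and ΔCsn3PE replicate 1 had the highest 2 of the 5 levels of each lactose synthesis gene except Hk2. The same held for Csn2, and the share of all genes with this order was not computed. The libraries form a set without WT tissue of its own, so that differences from WT cannot be told apart from differences between the sets.

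Ugp2 was the gene called in both single-enhancer lines against WT. It was at 138, 162 and 151 normalized CPM in ΔCsn1s2bE and at 177 and 125 in ΔCsn3PE, all above the WT level of 86.5 to 87.9. The log2 fold change was 0.72 (SE 0.14, adjusted p = 0.00372) in ΔCsn1s2bE and 0.73 (SE 0.15, adjusted p = 0.00826) in ΔCsn3PE. Slc5a1 was called higher in ΔCsn1s2bE, at 66.4, 98.0 and 80.5 against 43.0 to 56.7 normalized CPM (log2 fold change 0.68, SE 0.21, adjusted p = 0.0320), and its log2 fold change was 0.59 (SE 0.23, adjusted p = 0.0853) in ΔCsn3PE. These were 2 of 9 genes in ΔCsn1s2bE, where 17.2% of all genes were called higher and 15.0% lower, and 1 of 9 in ΔCsn3PE, where 13.8% were called higher and 11.5% lower. The same genes lay wholly above WT, as did 26.5% of all genes in ΔCsn1s2bE and 29.0% in ΔCsn3PE. Compared with WT replicate 1 alone, a lone library assumed to vary like the other groups, the log2 fold changes were 0.66 (adjusted p = 0.0873) and 0.68 (adjusted p = 0.103) for Ugp2 and 0.82 (adjusted p = 0.144) for Slc5a1, so that the sizes were near the others or larger and none passed. The call of Slc5a1 was also lost without WT replicate 1 or 3 or without ΔCsn1s2bE replicate 2 or 3 (adjusted p = 0.122, 0.108, 0.117 and 0.0690), and that of Ugp2 in ΔCsn3PE without its replicate 1 (adjusted p = 0.0960). Both comparisons use the same WT libraries.

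Between ΔCsn1s2bE and ΔCsn3PE, 0 of the 9 genes were called and 0 had an unadjusted p under 0.05, by edgeR's quasi-likelihood test, and DESeq2 called none either. Over all genes, 0.0117% were called higher and 0.169% lower in ΔCsn1s2bE. The intervals were wide for some genes: the log2 difference of Lalba was -0.78 with a 95% confidence interval of -2.51 to 0.94, and that of Tmem165 -0.01 with -1.18 to 1.17. For Ugp2 it was narrower, -0.01 with -0.35 to 0.33.

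Further genes around lactose synthesis were taken from 5 lists with 43 genes in all. In WT, 14 of the 43 rose between p6 and p18 and 3 fell, with a median log2 fold change of 0.31 against -0.05 over all genes, of which 17.2% rose and 12.4% fell. Among the cell markers, 2 of 10 luminal (Krt18 and Cldn7) and 3 of 8 myoepithelial ones (Acta2, Myh11 and Cnn1) also rose, and Prom1, Krt5 and the adipocyte markers Plin1 and Lipe fell. Of the 10 genes of Golgi nucleotide sugar and ion transport, 8 rose. Atp2c2, a Golgi calcium and manganese pump, had the largest log2 fold change, 4.11 (SE 0.50), and its relative Atp2c1 had 1.36 (SE 0.13). Slc35b1 (1.26) and Slc35a3 (0.89), both carriers of the same family as Slc35a2, rose too. Of the 10 sugar phosphate and Leloir enzymes 4 rose, among them the phosphoglucomutase Pgm1 (0.85, SE 0.15), Pgm2l1 (0.64) and the galactokinase relative Galk2 (0.58).

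Among 13 other glucose and hexose carriers, Slc2a9 (log2 fold change 2.54) and Slc50a1 (1.30) rose in WT, and Slc2a4, the insulin-responsive carrier of fat and muscle (-1.10), and the fructose carrier Slc2a5 (-1.79) fell. None of the 4 other hexokinases was called. Of the 6 other β-1,4-galactosyltransferases, B4galt4 fell (-0.67, SE 0.20, adjusted p = 0.0182) and the others were not called, with a list median of -0.37.

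In ΔSE tissue 16 of the 43 genes rose and 12 fell, with a median of 0.07, against 17.3% of all genes higher and 18.3% lower. The Golgi list again had 8 genes higher, with Atp2c2 at 3.75, Atp2c1 at 1.37, Slc35a3 at 0.73 and Slc35b1 at 0.87 on the log2 scale. B4galt2 (-1.12), B4galt4 (-0.64) and B4galt6 (-0.61) fell and B4galt7 rose (0.51). The carriers Slc2a4 (-1.62) and Slc2a5 (-2.49) fell and Slc2a9 (3.24) and Slc5a9 (1.59) rose. Hk1 rose (0.70, SE 0.12) and Hk3, a hexokinase of blood cells, fell (-0.90, SE 0.32). Pgm2l1 (0.95), Galk2 (0.57) and Pgm1 (0.41) rose and Ugdh, which turns UDP-glucose to UDP-glucuronate, fell (-0.72). All 9 muscle markers and 6 of 9 adipocyte markers also fell in this comparison, and 8 of 10 luminal markers rose. The part of these cells in the lists was not tested.

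**Figure D5:**
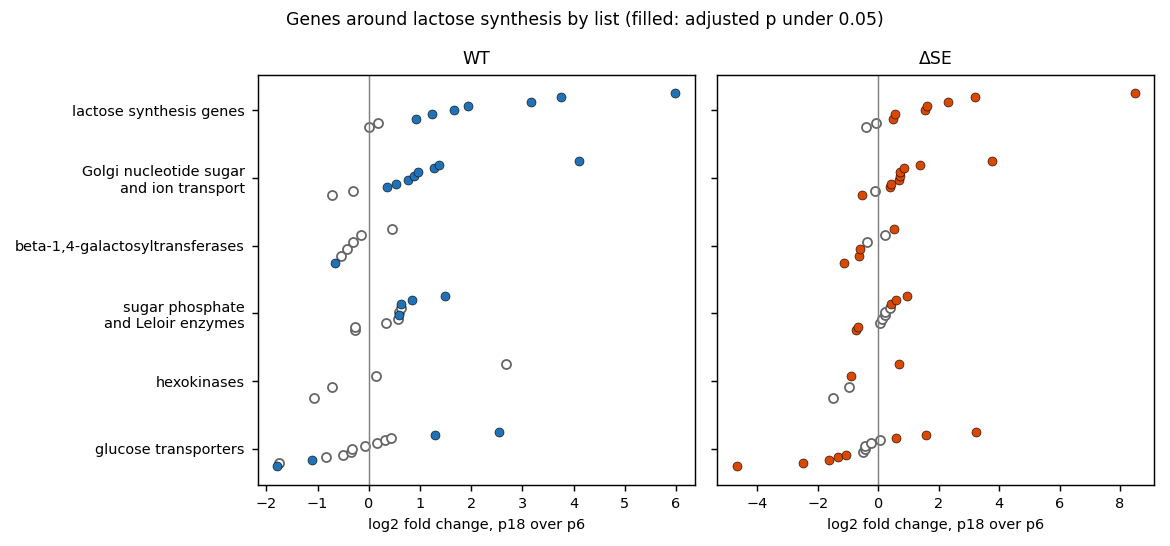
Log2 fold changes (p18 over p6) of the genes around lactose synthesis, by list, in WT (left) and ΔSE (right) tissue, with filled points for an adjusted p under 0.05. The Golgi list has 8 of 10 genes higher in both genotypes, whereas the galactosyltransferases other than B4galt1 have 1 lower in WT and 3 lower and 1 higher in ΔSE.

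Between ΔSE and WT, none of the 43 genes was called at p18 or in the interaction, and at p6 Slc2a13, a myo-inositol carrier, was called higher (log2 fold change 1.29, SE 0.23, adjusted p = 0.0237). Few of all genes were called either: 0.101% higher and 0.213% lower at p18, 0.0897% and 0.0616% in the interaction, and 0.499% and 0.527% at p6. In the single-enhancer lines against WT, of the 41 tested genes 12 were higher and 8 lower in ΔCsn1s2bE, and 10 higher and 6 lower in ΔCsn3PE. Over all genes the shares were 17.2% higher and 15.0% lower in the first line and 13.8% and 11.5% in the second. The Golgi list had 7 and 5 of 9 tested genes higher. In ΔCsn1s2bE its smallest p-values were those of Slc35a1 (log2 fold change 0.83), Atp2c1 (0.82), Slc35a3 (0.83) and Slc30a5 (0.80). The largest log2 fold change of the list there was that of Slc35b1 (0.84). Of the 10 sugar phosphate and Leloir enzymes, Pgm1, Pgm2l1, Galk2, Galm and Ugdh were called higher in both lines, with log2 fold changes of 0.35 to 0.79 in ΔCsn1s2bE and 0.51 to 0.66 in ΔCsn3PE. Galk1, which phosphorylates galactose, was lower in both (-1.61 in ΔCsn1s2bE and -1.26 in ΔCsn3PE). None of the 41 was called between the lines, where 0.0117% of all genes were called higher and 0.169% lower in ΔCsn1s2bE.

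Over the 14 WT and ΔSE libraries, the genes with the pattern most like that of Lalba, by Pearson's r of log2(normalized CPM + 1) among 10461 genes whose mean level reached 5 normalized CPM, were Slc34a2 (r = 0.987), Rapgef5 (0.986), Xdh (0.985), Trappc11 (0.984) and Cpeb4 (0.983). For B4galt1 they were Wfdc3 (0.994), Qars (0.993), Sowahb (0.993), Tfrc (0.992) and Abcg2 (0.991). The points share their libraries and fall into p6 and p18, and no p was computed.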

How the data were processed

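Total RNA from frozen whole mammary tissue was depleted of ribosomal RNA and sequenced as stranded paired-end libraries on an Illumina sequencer. Per the labels and the study's methods, the authors trimmed reads with Trimmomatic, aligned them with STAR to mm10 (GRCm38) and counted reads per gene with HTSeq. The deposited values are whole-number counts per gene, not normalized, and counts on overlapping genes can be left out as ambiguous. Summary entries that name no gene, present in the 5 single-enhancer files, stayed out of library sizes and tests; of all counts in these files, those without a feature came to 13.2 to 20.9% and ambiguous ones to 0.672 to 0.821%.

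The filter kept genes with 10 or more reads over the libraries of a fit. Log2 fold changes and p-values came from the quasi-likelihood test of edgeR 4.0.16 (glmQLFit, glmQLFTest) under R 4.3.3, after TMM scaling. WT and ΔSE tissue was fitted together (14 libraries, 4 groups, 17844 genes), and WT at p18 was fitted separately with both single-enhancer lines (8 libraries, 3 groups, 17125 genes). P-values were adjusted by the Benjamini-Hochberg method across every tested gene, with calls made under 0.05. Standard errors were derived from the F statistic. Levels are normalized CPM with TMM factors over all 19 libraries, so that a ratio of levels can differ from a fold change of a model. Read ratios had 0.5 reads added and were tested by exact two-sided permutation, with the one-sided p doubled. With 1 to 16 reads of a gene in a library, counting error alone is large. The scripts were tested on simulated data.

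The 9 genes, the lists and the rule for naming genes were chosen with earlier results of these data known. The rule names the 9 genes, up to 4 called genes of each list in each comparison with the smallest p, and 5 genes each most like Lalba and B4galt1; examples beyond it were chosen after their values were seen, and 1 gene that it names is not reported here. Alternatives were DESeq2 (version 1.42.0), other scalings and filters, other sets of libraries, covariates and a replicate block. Scaling by totals without Rn45s, and WT at p18 by replicate 1 alone, were chosen after seeing the data.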

Additional observations from a re-analysis of the deposited data

Results flagged for a closer look

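The rise of Tmem165 from p6 to p18 differed between ΔSE and WT tissue, with a difference of log2 fold changes of -1.64 (ΔSE minus WT, edgeR's interaction of genotype and stage, adjusted p = 0.0462). In WT its mean went from 23.6 ± 3.79 (SD, n = 3) to 210 ± 76.1 normalized CPM (SD, n = 3), and in ΔSE from 28.1 ± 3.43 (SD, n = 4) to 80.5 ± 13.0 (SD, n = 4). The adjusted p ranged from 0.000224 to 0.141 over 25 alternatives. Among 22 sets of values in the groups of 4 libraries, 0 held a library far from the others by Dixon's criterion, where chance alone would mark about 1 in 20.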

How the results depend on the processing

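The stage comparisons called 7 lactose synthesis genes in WT and 7 in ΔSE, also without any 1 library (7 to 7). Between ΔSE and WT at p18, where 1 gene was called, DESeq2 called 2, the fit of only the 2 groups 3 and 1 factor of unwanted variation 2, and leaving out 1 library gave 0 to 2. At p6, with 0 called, scaling to Krt8 and Krt18 reads, the muscle covariate and DESeq2 each called 1, and leaving out 1 library gave 0 to 2. In the interaction, with 1 called, library totals alone, filterByExpr and library totals without Rn45s called 0, Krt8 and Krt18 scaling and DESeq2 called 2, and leaving out 1 library gave 0 to 2. For ΔCsn1s2bE against WT, with 2 called, library totals gave 6 and WT replicate 1 alone 0, and leaving out 1 library gave 1 to 2. For ΔCsn3PE against WT, with 1 called, library totals gave 5, Krt8 and Krt18 scaling, 1 unwanted factor and WT replicate 1 alone gave 0, and leaving out 1 library gave 0 to 2. The calls over all genes moved as well. Between ΔSE and WT at p18 they went from 56 to 496 with DESeq2, 824 with the 2 groups and 114 with 1 unwanted factor. At p6 they went from 183 to 908 with DESeq2. In the interaction they were 27, against 0 with library totals, 26 with filterByExpr and 584 with DESeq2. With library totals, the genes called higher went from 2950 to 5444 for ΔCsn1s2bE and from 2355 to 5103 for ΔCsn3PE. The cause was not tested. In the ΔSE stage comparison, Slc35a2 reversed to -0.062 and Galt to -0.11 with library totals, and to -0.57 and -0.63 with Krt8 and Krt18 scaling. These scalings moved the median of all genes: in WT between the stages to -0.42 with totals, -0.46 with totals without Rn45s and -0.70 with Krt8 and Krt18, and in ΔSE to -0.65, -0.44 and -1.18. The calls over all genes then split into 763 higher and 3663 lower with totals in WT and 628 and 7969 in ΔSE, against 3068 and 2211 in WT and 3083 and 3265 in ΔSE with TMM.

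Without 1 library, the log2 ratio differences of Lalba to B4galt1 ran from 2.38 to 4.84 (WT stage), 5.22 to 6.06 (ΔSE stage), -0.60 to 0.39 (p18) and -3.44 to -0.985 (p6), and those of Hk2 to Hk1 from -0.33 to 0.092, -1.33 to -0.76, -0.84 to -0.61 and -0.060 to 0.51. In the ΔSE stage comparison 4 against 3 libraries allow no p below 0.0571. With the replicate block, the comparisons called 7, 7, 1, 0, 1, 1, 1 and 0 genes in the order of the report's comparisons, the change being Slc5a1 in ΔCsn1s2bE against WT (0.68, adjusted p = 0.0609). The replicate numbers share only a number: same-numbered libraries correlated from -0.669 to 0.396 over 20 pairs. Of 1377 alternative values of single genes over 32 settings, 1217 kept their direction and call, 42 lost a call, 30 gained one, 4 reversed and 84 uncalled values changed sign. The few Lalba reads at p6 limit its fold changes.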
